A study of Homo sapiens with 44 samples.

Results

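Bone morphogenetic proteins (BMPs) and the secreted proteins that hold them back were followed as 9 genes through a cardiac differentiation of human embryonic stem cells. They were the ligands BMP2, BMP4, BMP5, BMP6, BMP7 and BMP10 and the antagonists NOG (noggin), CHRD (chordin) and GREM1 (gremlin 1). The 9 genes were chosen by symbol, and each was matched to 1 of the 60499 Ensembl gene identifiers of the deposited count table through GENCODE release 29. The cells were of the established embryonic stem cell line H1, and each of the 44 libraries came from 1 culture well. Undifferentiated cells kept on the laminin LN-521 alone formed the pluripotent group, with 3 wells. All other wells were coated with LN-521 plus LN-221 and were collected at day 0, 1, 3, 14, 20, 30 and 90, with 3 wells each, and at day 5, 7, 9 and 11, with 5 wells each. Day 0 cells were in Nutristem medium. Wells of day 1 and day 3 received RPMI 1640, insulin-free B27 and CHIR99021, which blocks the kinase GSK3 and so turns on Wnt signalling. Wells of day 5 had IWP2, an inhibitor of Wnt production, in place of CHIR99021, those of day 7 and day 9 had neither, and those of day 11 to day 90 had RPMI 1640 with CTS B-27. The labels name no added BMP or BMP antagonist. The medium changed with the day, so the effects of day and of medium cannot be told apart.

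BMPs are secreted dimers of the TGF-beta superfamily that bind paired type I and type II receptor kinases, and the activated receptors phosphorylate SMAD1, SMAD5 and SMAD9, which enter the nucleus with SMAD4 and switch on targets such as the ID genes. Noggin, chordin and gremlin bind BMP dimers outside the cell and keep them from their receptors, and several antagonists are themselves induced by BMP signalling. In the embryo, BMP signals help to pattern the mesoderm and to specify the heart field, BMP2 acts in the atrioventricular canal, and BMP10 is made by the trabecular and atrial heart muscle.

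Estimated counts totalled 6937136 to 33498022 per library, and the RNA integrity number (RIN) ran from 7.4 to 10. The labelled stages carried their markers: the summed level of POU5F1, NANOG and SOX2 was 1795 to 1979 CPM in the pluripotent and day 0 wells, that of TBXT, MIXL1 and EOMES was 740 to 1208 CPM at day 1, and that of the cardiomyocyte genes TNNT2, MYH6, MYL7, ACTN2 and TNNI1 was 5053 CPM or more in every well from day 7 on. CPM are counts scaled to library size with TMM factors. Some wells stood apart. Wells 1 and 2 of day 11 held 4298 and 8102 CPM summed over 6 endoderm and liver markers against 138 to 171 CPM in wells 5, 6 and 7. The same markers were at 515 to 5160 CPM at day 9, 2373 to 3684 CPM at day 14 and 910 to 3750 CPM at day 20. Wells 5, 6 and 7 thus lay below every well of those 3 days. At day 90, well 4 had less smooth muscle marker RNA than the other wells, and at day 1, well 2 had more primitive streak marker RNA. Wells are named here by the replicate number in the labels. The labels call them biological replicates without saying that they came from separate differentiations, so the p-values measure the spread between wells, which may be partly technical.

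The time courses differed between the 9 genes, though some ran alike. Most of their calls lay between day 0 and day 7, as did most calls over all genes. BMP4 peaked at day 3, BMP2 had its highest mean CPM at day 7 and day 9, BMP5 rose at day 3 and again at day 5 and stayed high to day 90, and BMP7, the leading ligand before differentiation, rose from day 5 to day 7. BMP10, the heart muscle ligand, was near the counting limit up to day 1 and was present from day 3. Neighbouring days were compared in 11 steps, and day 9 was compared with day 0 and day 90 with day 9. Genes were called at an adjusted p (edgeR quasi-likelihood test, Benjamini-Hochberg over all genes) under 0.05 with a log2 fold change of at least 1 in either direction. All 9 genes passed the filter on low counts, as did 22955 genes in all, and each of the 9 was called in at least 1 step. Of 99 tests of a gene in a step, 19 made a call, and 13 of these lay in the 4 steps from day 0 to day 7. Over all genes, 13.5%, 17.8%, 10.1% and 3.65% were called in these 4 steps. In the other steps 0.0479% to 5.09% of all genes were called. Steps that share a day share its wells and are not independent. In bulk RNA, fewer cells of a type and less RNA per cell cannot be told apart, in these values and in those that follow.

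**Figure D1:**
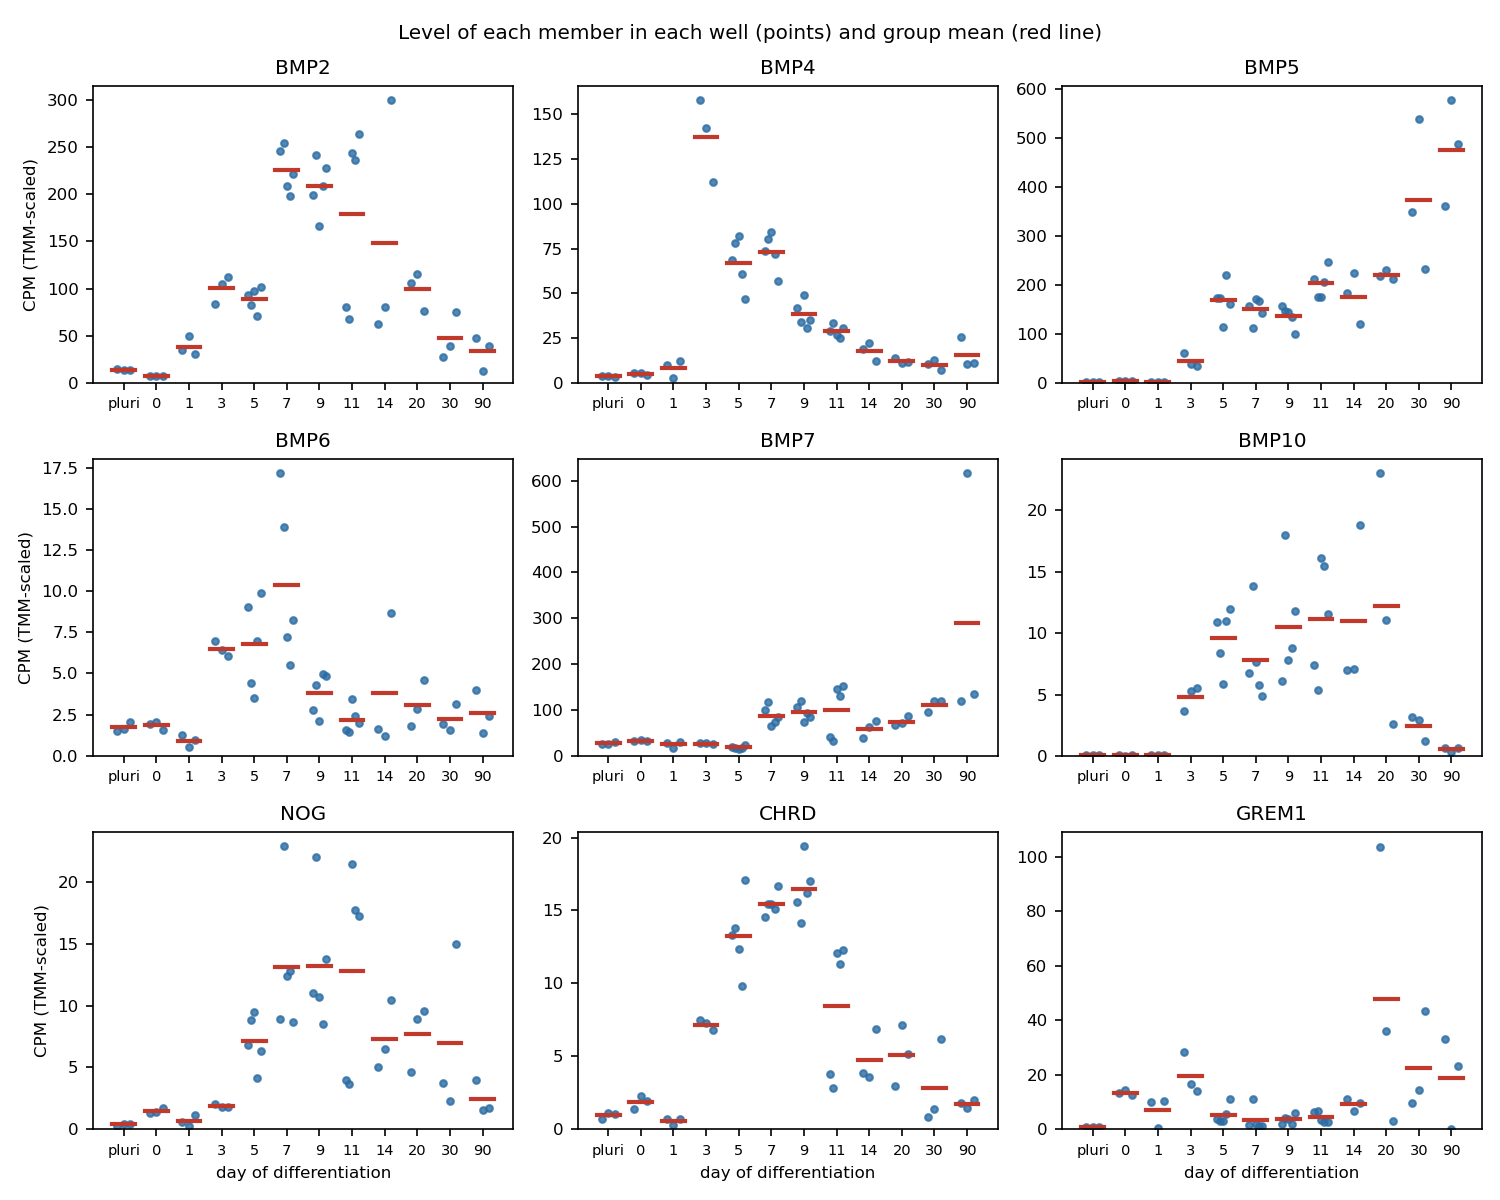
Level of each gene (TMM-scaled CPM, linear axes that differ between panels) in every well, as points, with the group mean as a red line, for pluripotent wells and 11 days (3 or 5 wells each). BMP4 is highest in the 3 wells of day 3, BMP2 splits into low and high wells at day 11 and day 14, and 1 day 90 well lies far above the others for BMP7.

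Day 0 differed from the pluripotent wells in 2 of the 9 genes, BMP5 and GREM1, both higher, against 2.91% of all genes called and 2.73% called higher. Day 1 differed from day 0 in 2, with BMP2 higher and CHRD lower, where 13.5% of all genes were called, 3.86% higher and 9.66% lower. Day 3 against day 1 had the most calls of any step, 6 of 9, all higher: BMP2, BMP4, BMP5, BMP6, BMP10 and CHRD. In that step 17.8% of all genes were called and 11% were called higher. The median log2 fold change was 2.80 over the 9 genes and 0.07 over all genes.

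In the step to day 5, BMP5 and NOG rose and BMP4 fell (3 of 9), where 10.1% of all genes were called, 5.75% higher and 4.34% lower. To day 7, BMP2 and BMP7 rose (2 of 9), against 3.65% of all genes called and 2.74% called higher. To day 9, BMP6 fell (1 of 9), against 1.28% called and 0.261% called lower. No gene of the 9 was called by edgeR in the next 3 steps. At an unadjusted p under 0.05 there were 2 in day 11 against day 9, 1 in day 14 against day 11 and 1 in day 20 against day 14, and DESeq2 and limma also called 0 in each. Over all genes, 1.63%, 0.697% and 0.0479% were called in these 3 steps. Other edgeR fits did call members there. With a replicate block CHRD and BMP2 were called lower at day 11 than at day 9, where 1.86% of all genes were called and 1.31% called lower. Only wells 1 and 2 of day 11 share a number with day 9, and without them neither gene was called in that step. Without these wells CHRD, BMP7 and NOG were called lower at day 14, where 10.4% of all genes were called and 3.17% called lower. That fit was added after the data were seen, and the wells left out were the lowest of day 11 for all of these genes. Leaving them out raised the day 11 level, so these calls follow in part from the choice of wells. BMP10 fell from day 20 to day 30 (1 of 9), against 2.02% of all genes called and 1.26% called lower. Without day 30 well 3 there were 3 calls, with CHRD lower (log2 -2.14, adjusted p = 0.0074) and BMP5 higher (log2 1.07, adjusted p = 0.020) besides, and 3.61% of all genes were called. From day 30 to day 90 BMP7 rose and BMP10 fell (2 of 9), where 5.09% of all genes were called, 2.65% higher and 2.44% lower.

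Over the longer spans, 7 of the 9 genes, all but BMP6 and GREM1, had risen by day 9 relative to day 0, where 31.7% of all genes were called and 17.1% were called higher. From day 9 to day 90, 8 of the 9 were called, 3 higher (BMP5, BMP7 and GREM1) and 5 lower (BMP2, BMP4, BMP10, NOG and CHRD). In that comparison 23.9% of all genes were called, 11.9% higher and 12% lower. The call for BMP7 rested on 1 well and that for GREM1 had overlapping wells, as given under each gene.

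**Figure D2:**
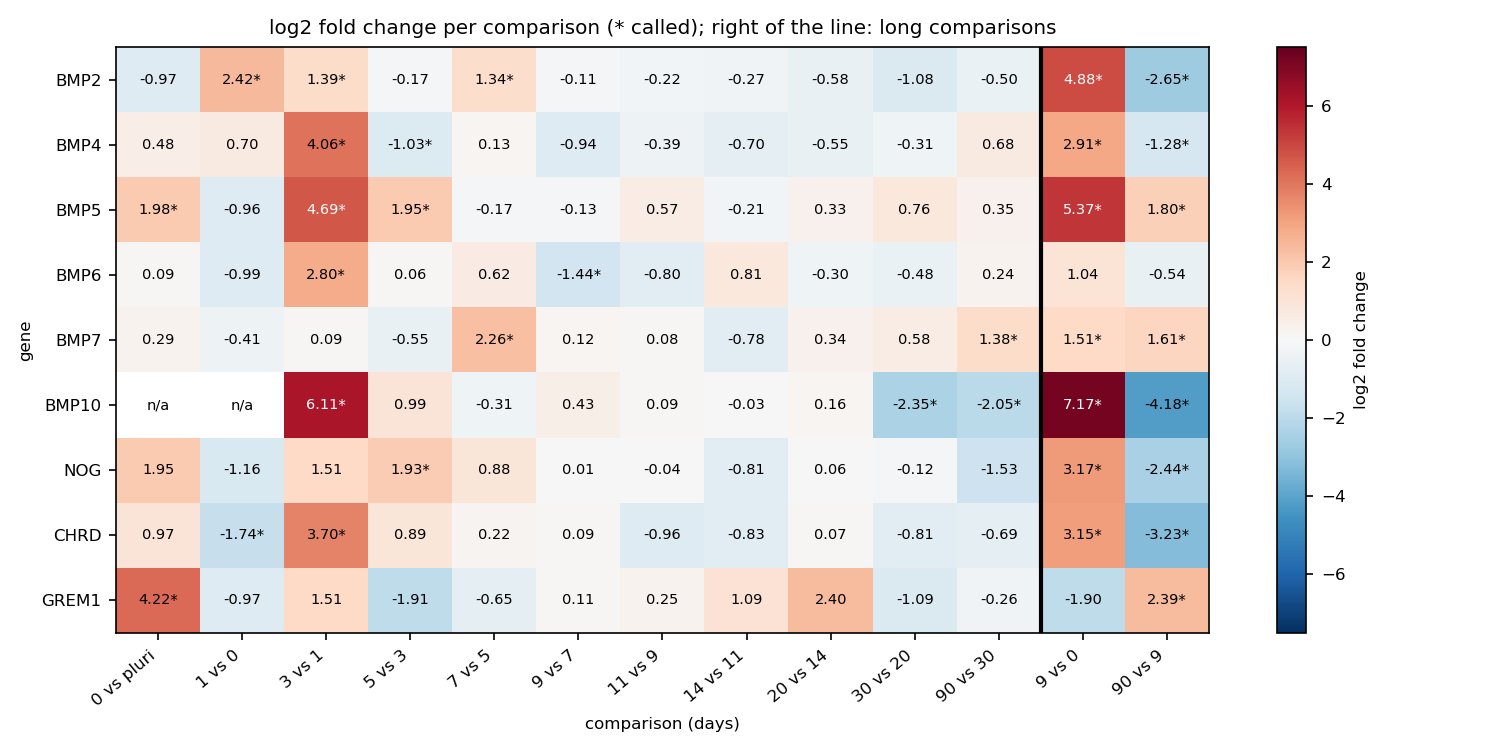
Fitted log2 fold change (colour and printed value, edgeR) of the 9 genes in the 11 steps and, right of the line, in the 2 longer comparisons; a star marks a call, and n/a marks 2 cells in which BMP10 had at most 3 counts in every well of both groups. The column of day 3 against day 1 has 6 stars, while the columns from day 11 to day 20 have none, and the values for BMP10 at day 3 and day 9 rest on a handful of reads in the earlier group.

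The 250 bases before the transcription start were looked at for each of the 9 genes with a promoter entry. RefSeq promoter entries (GRCh38.p14) were found for 6 of the 9 genes, BMP4, BMP5, BMP6, BMP10, CHRD and GREM1. BMP2, BMP7 and NOG had none. The windows of BMP5, BMP10 and CHRD are shown, each 5′ to 3′ on the gene's own strand, with 1 motif match in capitals. BMP5, which stayed high to day 90, has the letters of a TATA box and BMP10 a GATA motif. CHRD, an antagonist, has the GC-rich letters that SMAD1 and SMAD5 can bind.
BMP5, chr6:55875591-55875840, minus strand: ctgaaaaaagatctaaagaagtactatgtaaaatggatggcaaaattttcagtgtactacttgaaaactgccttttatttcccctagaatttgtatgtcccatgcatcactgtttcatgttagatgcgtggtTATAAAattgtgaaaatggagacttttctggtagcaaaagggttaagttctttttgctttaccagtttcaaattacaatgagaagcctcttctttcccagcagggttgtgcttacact
BMP10, chr2:68871518-68871647, minus strand: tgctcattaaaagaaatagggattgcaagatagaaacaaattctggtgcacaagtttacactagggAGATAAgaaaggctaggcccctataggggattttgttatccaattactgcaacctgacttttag
CHRD, chr3:184379804-184380053, plus strand: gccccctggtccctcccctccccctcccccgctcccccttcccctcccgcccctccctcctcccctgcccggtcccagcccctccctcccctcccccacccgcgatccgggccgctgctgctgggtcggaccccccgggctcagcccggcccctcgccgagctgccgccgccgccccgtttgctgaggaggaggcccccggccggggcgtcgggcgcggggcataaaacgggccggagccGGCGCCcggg

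The windows differed in base composition. GC content was 35.6% for BMP5, 44.8% for BMP10 and 81.6% for CHRD, against a median of 58% over 35116 windows of the same length. For BMP10, 130 bases are shown because the other 120 lie in an exon of the GENCODE model. Motifs were searched on both strands, and their matches may overlap. TATAAA, the letters of the TATA box, stood 118 to 113 bases before the start of BMP5, farther upstream than a TATA box usually lies, and is found in 10.7% of all windows. AGATAA, the GATA motif, stood 184 to 179 bases before the start of BMP10 and again at 32 to 27, inside that exon, and is found in 9.17% of all windows. GGCGCC stood 10 to 5 bases before the start of CHRD and is found in 16.4% of all windows. The same letters occurred 232 to 227 bases before the first of 3 RefSeq starts of BMP4, and in 2 places before the first start of GREM1. The TCF/LEF letters CTTTGA (11.2% of all windows) and the T-box letters AGGTGT (9.57%) had no match in any of the 6 genes, and BMP6 had a match to none of the 5 motifs. These are letter matches in one stretch of DNA and describe no binding.

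BMP4 (ENSG00000125378, minus strand of chr14:53949736-53958761) is a ligand of mesoderm formation. It was at 3.90, 3.77 and 3.24 CPM in the pluripotent wells, at 5.54, 5.19 and 4.49 CPM at day 0 and at 9.80, 2.70 and 12.2 CPM at day 1. At day 3 the wells held 158, 142 and 112 CPM, the highest levels of BMP4 in the series. All 3 lay above all wells of every other day. The rise from day 1 was 16.7-fold (log2 4.06, SE 0.36, adjusted p = 2.6e-11).

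At day 5 the 5 wells held 68.5, 78.2, 81.8, 60.5 and 46.6 CPM, a fall of 1.03 on the log2 scale (SE 0.27, adjusted p = 0.0063). That value sits at the fold limit, and it was 0.91 to 1.00 in size without day 3 well 1 or 2 or day 5 well 4 or 5, and 0.84 in the fit with a replicate block. BMP4 was at 56.6 to 84.3 CPM at day 7 and at 30.3 to 49.2 CPM at day 9, and the ranges of these days did not overlap. The step to day 9 had an adjusted p of 0.028 but missed the fold limit (log2 -0.94, SE 0.24). Wells of day 11 held 25.2 to 33.5 CPM, those of day 14 held 19.0, 22.2 and 12.2 CPM, and those of day 20 held 14.0, 10.8 and 11.5 CPM. At day 30 BMP4 was at 10.2, 12.4 and 6.95 CPM, and at day 90 at 25.6, 10.4 and 10.9 CPM. Over the whole course BMP4 rose 7.51-fold from day 0 to day 9 (adjusted p = 2.1e-09) and fell by 1.28 on the log2 scale from day 9 to day 90 (SE 0.30, adjusted p = 0.00068). Of the 11 neighbours in the order of its 12 group means, 3 had ranges apart: day 3 from day 7, day 11 from day 14, and day 0 from the pluripotent wells.

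BMP2 (ENSG00000125845, plus strand of chr20:6767664-6780280), a close relative of BMP4, moved earlier. The pluripotent wells held 14.2, 13.8 and 13.8 CPM and the day 0 wells 6.95, 6.89 and 7.49 CPM. Although these ranges were apart, the difference was not called (log2 -0.97, SE 0.45, adjusted p = 0.21). At day 1, with CHIR99021 in the medium, BMP2 was at 34.8, 49.4 and 30.0 CPM, a 5.35-fold rise (log2 2.42, SE 0.47, adjusted p = 0.00018). It was the only one of the 9 genes called higher in that step.

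Wells of day 3 held 83.1, 105 and 112 CPM, a further rise of 2.63-fold (adjusted p = 0.016) that missed the threshold without day 1 well 1 or 3 or without day 3 well 3 (adjusted p = 0.053 to 0.080). Day 5 was similar, with 70.5 to 102 CPM. At day 7 the 5 wells held 246, 255, 209, 198 and 222 CPM, all above all day 5 wells (log2 1.34, SE 0.34, adjusted p = 0.011), though limma on log2(TPM + 1) gave an adjusted p of 0.18. Day 9 followed with 199, 242, 166, 209 and 228 CPM. From day 0 to day 9 the rise was 29.4-fold (log2 4.88, SE 0.50, adjusted p = 3.1e-10).

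After day 9 the wells of a day parted, and the highest single wells of BMP2 belong to day 14 and day 11. At day 11, wells 1 and 2 held 80.0 and 68.0 CPM of BMP2, and wells 5, 6 and 7 held 244, 237 and 264 CPM. Similarly, day 14 wells 2 and 3 held 62.6 and 80.5 CPM and well 6 held 300.5 CPM. No well of either day lay between these levels. Day 11 against day 9 was called with a replicate block (log2 -1.27, SE 0.32, adjusted p = 0.022). Of the day 11 wells, only the low wells 1 and 2 share a number with day 9. Without them the edgeR value had the other sign and was not called (log2 0.25, SE 0.33, adjusted p = 0.74). BMP2 was at 106, 115 and 76.3 CPM at day 20, at 27.0, 38.6 and 75.3 CPM at day 30 and at 47.8, 12.7 and 38.7 CPM at day 90, with a fall of 2.65 on the log2 scale from day 9 to day 90 (SE 0.44, adjusted p = 6.9e-06). Among the neighbours in the order of its group means, only the pluripotent wells and day 0, the lowest pair, had ranges apart.

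BMP5 (ENSG00000112175, minus strand of chr6:55753645-55875564), a ligand of the subgroup of BMP6 and BMP7, whose AT-rich promoter is shown above, rose at day 3 and day 5 and did not come back down. The pluripotent wells held 0.442, 1.13 and 0.875 CPM and the day 0 wells 3.05, 3.66 and 3.14 CPM, a rise of 3.94-fold (adjusted p = 0.00030) that limma on log2(TPM + 1) did not call (log2 0.41, adjusted p = 0.91). At day 1 the level was 1.68, 1.09 and 2.27 CPM (log2 -0.96, adjusted p = 0.021, under the fold limit). At day 3 it was 60.0, 37.1 and 33.4 CPM, a 25.7-fold rise (log2 4.69, SE 0.33, adjusted p = 1.0e-13).

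Day 5 wells held 173, 172, 115, 220 and 160 CPM of BMP5, another 3.86-fold (log2 1.95, SE 0.26, adjusted p = 7.6e-07). No later step was called. The wells of day 7 and day 9 held 111 to 171 CPM and 99.6 to 156 CPM, and those of day 11 held 212, 176, 175, 205 and 246 CPM. In contrast to BMP2, wells 1 and 2 of day 11 were within the range of the other wells. BMP5 was at 182, 224 and 119 CPM at day 14, at 217, 230 and 212 CPM at day 20, at 349, 538 and 231 CPM at day 30 and at 362, 577 and 487 CPM at day 90. Day 90 exceeded day 9 by 3.48-fold (log2 1.80, SE 0.24, adjusted p = 1.1e-07), with no overlap between the wells, and day 9 exceeded day 0 by 41.5-fold (log2 5.37, SE 0.32, adjusted p = 3.3e-16). Both calls, and those of day 3 and day 5, held in every alternative run.

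BMP7 (ENSG00000101144, minus strand of chr20:57168748-57266629) was flat and then rose late. The pluripotent wells held 26.2, 26.4 and 29.6 CPM, day 0 wells 32.9, 34.2 and 33.2 CPM, day 1 wells 28.9, 17.4 and 29.4 CPM, and day 3 wells 28.2, 27.4 and 24.9 CPM. The 5 wells of day 5 held 15.6 to 23.3 CPM, and no step up to day 5 was called. At day 7 the wells held 99.8, 116, 65.7, 74.2 and 83.7 CPM, all above every earlier well, a 4.78-fold rise (log2 2.26, SE 0.35, adjusted p = 1.5e-05) that held in every alternative run. An antisense gene, BMP7-AS1, lies within its span and had 0 counts in every library.

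Wells of day 9 held 72.9 to 119 CPM of BMP7. Like BMP2, it parted at day 11, with 40.8 and 32.0 CPM in wells 1 and 2 and 146, 131 and 153 CPM in wells 5, 6 and 7. It was at 38.0, 62.5 and 75.5 CPM at day 14, at 66.5, 70.6 and 86.1 CPM at day 20 and at 96.6, 119 and 119 CPM at day 30. At day 90, wells 2 and 5 held 120 and 135 CPM and well 4 held 617 CPM. The rise from day 30 to day 90 (log2 1.38, SE 0.43, adjusted p = 0.039) was 0.22 without well 4 (adjusted p = 0.80) and was lost without any 1 of the 3 day 30 wells too (adjusted p = 0.053 to 0.11) and with a replicate block (adjusted p = 0.083), and the rise from day 9 to day 90 (log2 1.61, SE 0.37, adjusted p = 0.00065) was 0.43 without it (adjusted p = 0.36). Day 9 against day 0 was called (log2 1.51, SE 0.41, adjusted p = 0.0021), while limma on log2(TPM + 1) gave 0.53 (adjusted p = 0.29).

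BMP10 (ENSG00000163217, minus strand of chr2:68865481-68871517), the ligand of heart muscle whose promoter is shown above with its GATA motif, had 4 counts in all over the pluripotent wells, 6 over the day 0 wells and 6 over the day 1 wells, with at most 3 in any of them. At day 3 the wells held 3.70, 5.29 and 5.51 CPM from 381 counts in all. From summed counts the day 3 level was 75.1 times that of day 1, with an exact 95% binomial interval of 34.2 to 206 that covers counting error alone (edgeR, adjusted p = 6.8e-08). Reads are not molecules in these libraries, so such an interval is a least width.

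Wells of day 5 held 10.9, 8.34, 5.82, 11.0 and 11.98 CPM of BMP10, day 7 wells 6.76, 13.8, 7.65, 5.77 and 4.88 CPM, and day 9 wells 6.07, 18.0, 7.84, 8.77 and 11.8 CPM. These ranges overlapped, and none of these steps was called. At day 11 it was at 7.39 and 5.40 CPM in wells 1 and 2 and at 16.1, 15.4 and 11.6 CPM in wells 5, 6 and 7, and at day 14 at 7.03, 7.04 and 18.9 CPM. Wells of day 20 spread most, with 23.0, 11.1 and 2.59 CPM. Wells of day 30 held 3.14, 2.89 and 1.204 CPM. This fall (log2 -2.35, SE 0.55, adjusted p = 0.011) had overlapping wells and was lost without day 20 well 1 (adjusted p = 0.22) and in the 3 limma fits (adjusted p = 0.092 to 0.16). The fit of the compared groups alone gave an adjusted p of 0.63 and called 0 genes in all. Day 90 wells held 0.672, 0.348 and 0.672 CPM, below every day 30 well (log2 -2.05, SE 0.62, adjusted p = 0.031), a call lost without any 1 of the 3 day 90 wells or without day 30 well 1 or 10 (adjusted p = 0.053 to 0.11) and by limma on log2(TPM + 1) (adjusted p = 0.13). The fall from day 9 to day 90, of 4.18 on the log2 scale (SE 0.60, adjusted p = 5.3e-07), held in every alternative run.

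BMP6 (ENSG00000153162, plus strand of chr6:7726797-7881422) had the lowest mean TPM of the 6 ligands at every day from day 3 to day 30, and at day 90 BMP10 was lower. It was at 1.53 to 2.08 CPM in the pluripotent and day 0 wells and at 1.28, 0.546 and 0.965 CPM at day 1. At day 3 it was at 6.95, 6.44 and 6.08 CPM, a 6.95-fold rise (log2 2.80, SE 0.55, adjusted p = 0.00014). Wells of day 5 held 3.51 to 9.89 CPM and those of day 7 held 17.2, 13.9, 7.22, 5.50 and 8.22 CPM. At day 9 they held 2.81, 4.32, 2.12, 4.99 and 4.85 CPM, a fall of 1.44 on the log2 scale (SE 0.40, adjusted p = 0.043) with no overlap. That call passed the threshold without day 7 well 2 or 3 and was lost without any other 1 of the 10 wells (adjusted p = 0.055 to 0.20) and in the limma fit on all genes above 0 (log2 -0.67, adjusted p = 0.94). From day 11 on, every well held 1.22 to 4.60 CPM except day 14 well 6, with 8.68 CPM.

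NOG (ENSG00000183691, plus strand of chr17:56593699-56595590), which encodes noggin, was first called in the step to day 5. It was at 0.281, 0.398 and 0.437 CPM in the pluripotent wells, 1.31, 1.36 and 1.73 CPM at day 0, 0.606, 0.225 and 1.12 CPM at day 1 and 2.07, 1.75 and 1.77 CPM at day 3. At day 5 the wells held 6.77, 8.86, 9.51, 4.13 and 6.36 CPM, a 3.82-fold rise (log2 1.93, SE 0.55, adjusted p = 0.012). All day 5 wells lay above all day 3 wells, but the call was lost without day 3 well 2 or 3 (adjusted p = 0.056 and 0.059) and in the 3 limma fits on log2 TPM (log2 0.86 to 1.42, adjusted p = 0.059 to 0.19).

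Wells of day 7 held 8.91, 22.9, 12.4, 12.8 and 8.71 CPM of NOG and those of day 9 held 11.0, 22.1, 10.7, 8.49 and 13.8 CPM, with well 10 the highest on both days. At day 11 wells 1 and 2 held 4.01 and 3.69 CPM and wells 5, 6 and 7 held 21.4, 17.8 and 17.3 CPM. NOG was at 5.02, 6.47 and 10.5 CPM at day 14, 4.64, 8.89 and 9.53 CPM at day 20, 3.71, 2.26 and 15.0 CPM at day 30, where well 3 was far above the others, and 3.94, 1.53 and 1.74 CPM at day 90. It rose 8.99-fold from day 0 to day 9 (log2 3.17, SE 0.59, adjusted p = 2.5e-05) and fell by 2.44 on the log2 scale from day 9 to day 90 (SE 0.57, adjusted p = 0.00065). Both calls held in every alternative run.

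CHRD (ENSG00000090539, plus strand of chr3:184380073-184390736), which encodes chordin, fell before it rose. Pluripotent wells held 0.723, 1.07 and 1.02 CPM, day 0 wells 1.38, 2.26 and 1.90 CPM, and day 1 wells 0.674, 0.257 and 0.716 CPM. The fall to day 1, of 1.74 on the log2 scale (SE 0.52, adjusted p = 0.013), was lost without day 0 well 2 (adjusted p = 0.058) or day 1 well 2 (adjusted p = 0.094) and in the 3 limma fits (adjusted p = 0.18 to 0.91). At day 3 the wells held 7.47, 7.26 and 6.79 CPM, a 13.0-fold rise (log2 3.70, SE 0.53, adjusted p = 8.6e-07).

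CHRD then stayed at 9.83 to 17.1 CPM at day 5, at 14.6 to 16.7 CPM at day 7 and at 14.2 to 19.4 CPM at day 9. At day 11 wells 1 and 2 held 3.77 and 2.81 CPM and wells 5, 6 and 7 held 12.1, 11.3 and 12.3 CPM. All 5 lay below every day 9 well (log2 -0.96, SE 0.35, adjusted p = 0.12). With a replicate block the value was -1.87 (SE 0.38, adjusted p = 0.0042). Without wells 1 and 2, the only ones to share a number with day 9, it was -0.47 (SE 0.33, adjusted p = 0.47). It was at 3.82, 3.56 and 6.87 CPM at day 14, 2.95, 7.11 and 5.18 CPM at day 20, 0.814, 1.41 and 6.16 CPM at day 30 and 1.79, 1.46 and 1.96 CPM at day 90. The rise from day 0 to day 9 was 8.90-fold (adjusted p = 6.0e-07), and day 90 was lower than day 9 by 9.41-fold (log2 -3.23, SE 0.48, adjusted p = 9.0e-07). THPO overlaps CHRD on the opposite strand, with a mean of 9.75 counts per library, and how strand was used in counting is not given in the sources used here.

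GREM1 (ENSG00000166923, plus strand of chr15:32717974-32745107), which encodes gremlin 1, had the least uniform wells. Pluripotent wells held 0.723, 0.582 and 0.838 CPM and day 0 wells 13.3, 14.3 and 12.6 CPM, an 18.7-fold rise (log2 4.22, SE 1.13, adjusted p = 0.021). The wells agreed closely within each group, but the spread that edgeR pooled over the series was wide, and the adjusted p was 0.052 to 0.12 without any 1 of the pluripotent wells or without day 0 well 1 or 2, and 0.15 to 0.56 in the 3 limma fits. At day 1, wells 1 and 3 held 9.84 and 10.4 CPM and well 2 held 0.321 CPM, and at day 3 the level was 28.2, 16.6 and 13.8 CPM.

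From day 5 to day 11, while the other antagonists were high, GREM1 was low, at 2.95 to 11.0 CPM at day 5, 1.18 to 11.0 CPM at day 7, 1.86 to 5.89 CPM at day 9 and 2.76 to 6.46 CPM at day 11. Day 9 was not called against day 0 (log2 -1.90, SE 0.83, adjusted p = 0.058), although the ranges were apart. Wells of day 14 held 11.0, 6.68 and 9.74 CPM. Thereafter the wells of a day disagreed, with 104, 36.1 and 3.10 CPM at day 20, 9.41, 14.3 and 43.4 CPM at day 30 and 32.9, 0.0696 and 23.0 CPM at day 90. The day 90 well 4 value is 1 count. The call of day 90 over day 9 (log2 2.39, SE 0.84, adjusted p = 0.022) had overlapping wells and an adjusted p of 0.050 to 0.17 without day 90 well 2 or 5 or day 9 well 1 or 3. It was 0.062 with a replicate block, 0.11 with a term for lane and 0.42 to 0.84 in the 3 limma fits. A long non-coding RNA, AC090877.2, overlaps GREM1 on the opposite strand with a mean of 1.39 counts per library.

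In the order of the 12 group means most neighbours overlapped for the other genes as well. BMP5 had 4 of 11 neighbours apart: day 30 from day 20, day 9 from day 3, day 3 from day 0, and day 0 from day 1. BMP7 had 3, day 90 from day 30, day 14 from day 0, and day 0 from the pluripotent wells. BMP10 had 3, day 3 from day 30, day 30 from day 90, and day 90 from day 0. BMP6 had only 1, the pluripotent wells from day 1. Among the antagonists NOG had 2 (day 3 from day 0, and day 0 from day 1), CHRD had 2 (day 90 from the pluripotent wells, and these from day 1) and GREM1 had 2 (day 0 from day 14, and day 7 from the pluripotent wells).

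Levels can be compared between genes as TPM, which are scaled for transcript length. On that scale the leading gene of the 9 changed with the day. BMP7 led in all 6 pluripotent and day 0 wells, with a mean share of the summed TPM of 66.7% ± 2.07 (SD, n = 3) in the pluripotent group and 60.2% ± 1.72 (SD, n = 3) at day 0. At day 1 BMP7 led in 2 wells and BMP2 in 1. At day 3 BMP4 led in all 3 wells, with 56.9% ± 3.67 (SD, n = 3).

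BMP4 led in 3 wells of day 5 and BMP5 in 2, and BMP2 led in all 5 wells of day 7 and all 5 of day 9, with 30.5% ± 1.99 and 32.6% ± 3.48 (SD, n = 5 each). At day 11 BMP2 led in wells 5, 6 and 7 and BMP5 in the other wells, and at day 14 BMP5 led in 2 wells and BMP2 in 1. BMP5 led in all wells of day 20 and day 30, with 54.8% ± 14.3 at day 30 (SD, n = 3), and in 2 wells of day 90, where BMP7 led in the other. The summed TPM of the 6 ligands was 13.5 ± 1.501 in the pluripotent group and 14.6 ± 0.479 at day 0, and 107 ± 3.71 at day 3 (SD, n = 3 each). From day 5 to day 90 its group means lay between 74.8 and 99.2.

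The 3 antagonists together made up a small part of the summed TPM of all 9 genes on every day. Their share was 3.21% ± 0.444 in the pluripotent wells and 17.4% ± 1.28 at day 0 (SD, n = 3 each), where GREM1 made up most of it, and these ranges did not overlap. From day 1 to day 14 the group means lay between 5.39% and 8.51%. At day 20 the share was 11.7% ± 6.16 and at day 90 it was 3.30% ± 2.67 (SD, n = 3 each), with wells that overlapped those of most other days. These shares count transcripts, not protein.

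**Figure D3:**
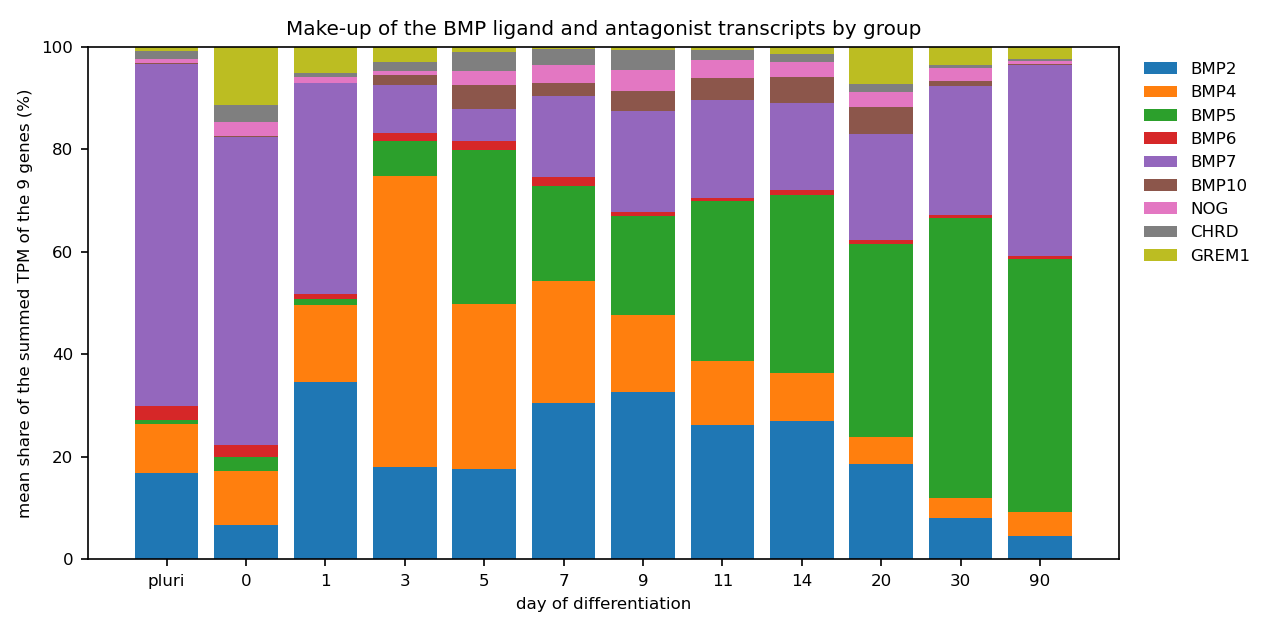
Mean share (%) of the summed TPM of the 9 genes that each gene makes up, as stacked bars from 0 to 100, for the pluripotent group and each day (3 or 5 wells). BMP7 has the largest share in the pluripotent group (66.7%) and at day 0 (60.2%), BMP4 at day 3 (56.9%), BMP2 at day 7 and day 9, and BMP5 from day 20 on.

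The wells that disagreed did so in several of the 9 genes together. At day 11, wells 1 and 2 lay below wells 5, 6 and 7 for BMP2, BMP6, BMP7, BMP10, NOG and CHRD, above them for GREM1, and within their range or overlapping it for BMP4 and BMP5. In the same wells the summed level of the 5 cardiomyocyte markers was 7690 and 5053 CPM against 18554 to 19581 CPM, that of the 6 endoderm and liver markers was 4298 and 8102 CPM against 138 to 171 CPM, and RIN was 8.6 and 8.0 against 9.2 to 9.5. None of the 11 markers was at or under 3 counts in every well of day 11. Their part in the levels of the BMP genes was not tested. Without both wells, an alternative added after the data were seen, CHRD (log2 -1.30, adjusted p = 0.019), BMP7 (log2 -1.27, adjusted p = 0.010) and NOG (log2 -1.33, adjusted p = 0.049) were called lower at day 14 than at day 11. In that fit 10.4% of all genes were called in the step and 3.17% were called lower, and the median of all genes was at 0.13. Day 11 against day 9 still had 0 of the 9 called, where 3.77% of all genes were called. Of the endoderm and liver markers, day 9 wells held 515 to 5160 CPM and all 3 day 14 wells held 2373 to 3684 CPM.

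At day 1, well 2 had the least BMP4, BMP5, BMP6, BMP7, NOG, CHRD and GREM1 of the 3 wells and the most BMP2. It held 1208 CPM of the 3 primitive streak markers against 854 and 740 CPM in the other wells, and 92.7 CPM of the 4 smooth muscle markers, the lowest of the 3 wells. At day 90, well 4 had the most BMP7 and BMP5 and the least of the other 7 genes. Its 6 fibroblast and epicardium markers summed to 374 CPM against 1068 and 1877 CPM, its 4 smooth muscle markers to 391 CPM against 1196 and 1353 CPM, and its 6 endoderm and liver markers to 129 CPM against 5.88 and 6.63 CPM. At day 30, well 3 had the most BMP2, BMP6, NOG, CHRD and GREM1, with 45.9 CPM of the 4 endothelial markers against 7.18 and 7.82 CPM and 266 CPM of the endoderm and liver markers against 16.1 and 31.4 CPM. At day 20, GREM1 (104, 36.1 and 3.10 CPM) and the fibroblast and epicardium markers (1519, 952 and 415 CPM) had the same order over the 3 wells. It was the same at day 90 too, with GREM1 at 32.9, 0.0696 and 23.0 CPM and these markers at 1877, 374 and 1068 CPM in wells 2, 4 and 5. The order differed at day 14, where the same markers were at 1433, 1268 and 404 CPM. It also differed at day 30, where they were at 787, 564 and 1232 CPM in wells 1, 10 and 3, though well 3 was highest for both. No part of these markers in the levels of the BMP genes was tested.

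**Figure D4:**
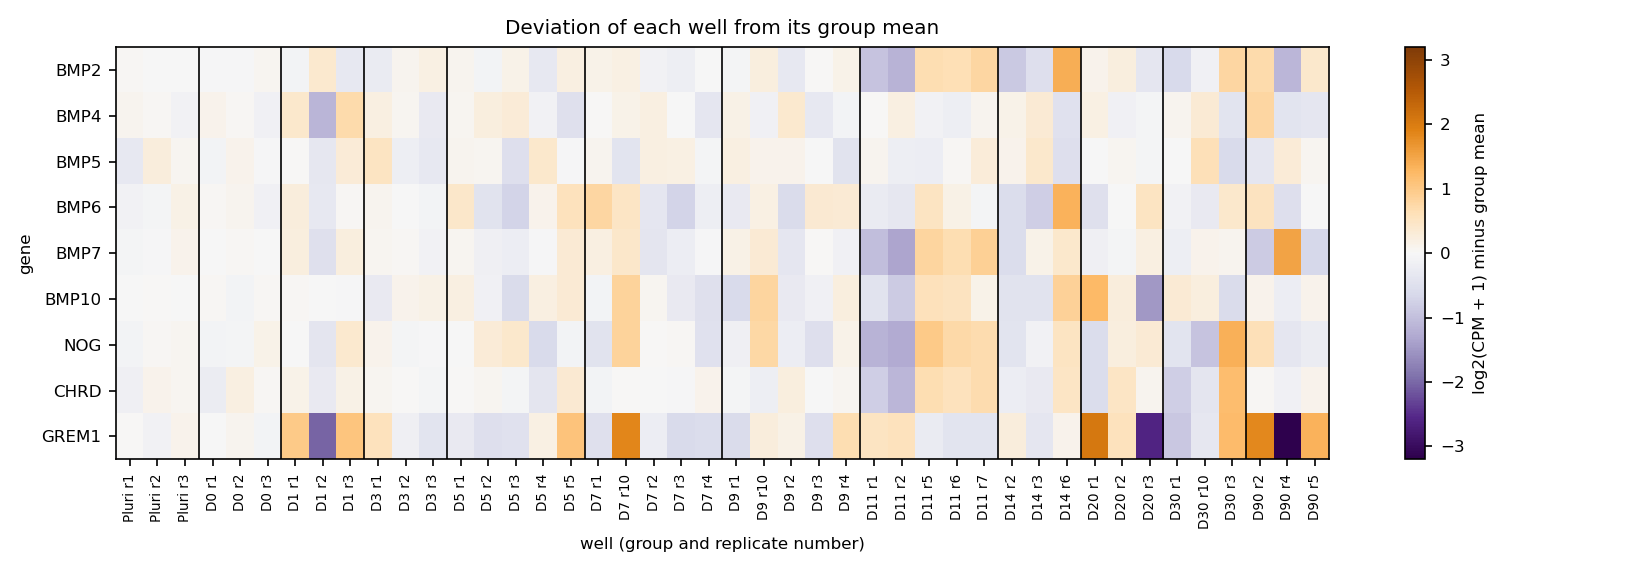
Deviation of each of the 44 wells (columns, labelled by group and replicate number r) from its group mean for the 9 genes, as log2(CPM + 1), with purple below and orange above the mean. Wells 1 and 2 of day 11 are purple for BMP2, BMP6, BMP7, BMP10, NOG and CHRD, while for BMP5 they lie near the mean, on either side. GREM1 lies farthest below its group mean in day 1 well 2, day 20 well 3 and day 90 well 4, and farthest above it in day 20 well 1.

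The rest of the pathway was described from 59 genes in 6 lists, of which 57 passed the filter on low counts. BMP15 and CHRDL2 did not. From day 0 to day 1, 16 were called, 8 higher and 8 lower. Of all genes 13.5% were called in that step, 3.86% higher and 9.66% lower. Of 12 common BMP target genes 4 rose and 2 fell. MSX1 (log2 4.31) and TBX3 (2.07), transcription factors, rose most, and ID4 (-1.44) and ID1 (-1.41), inhibitors of helix-loop-helix factors, fell. Of 13 other secreted BMP binders FST (4.40), which encodes follistatin, and CER1 (3.54), which encodes cerberus, rose and none fell.

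In the same step RGMB (1.66), a co-receptor, rose and the receptors ACVRL1 and ACVR1 fell among 11 receptors and co-receptors. ACVRL1 had 90 counts in all at day 0 and 7 at day 1, a ratio of 13.5 (exact 95% interval of counting error 6.27 to 34.4), and ACVR1 changed by -1.62. SMAD1 rose (1.11) and SMAD9 fell (-1.70) among 8 SMADs and their inhibitors. The ligand genes BMP3 and GDF5 fell among 7 others, BMP3 from 64 counts in all to 5 and GDF5 from 17 to 3. The protease gene PCSK5 fell (-1.27) among 6 proteases that process BMPs or chordin.

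From day 0 to day 9, 35 of the 57 were called, 30 higher and 5 lower. Of all genes 31.7% were called, 17.1% higher and 14.6% lower. Of the 12 target genes 11 rose and none fell, where 17.1% of all genes were called higher. Their median log2 fold change was 4.01, against 0.08 over all genes. The list was chosen with earlier results of these data known, so these counts only describe it. HAND1 (log2 7.79, SE 0.68) and TBX3 (6.83, SE 0.39), transcription factors of the heart field, rose most. Among SMADs and their inhibitors 3 of 8 rose and none fell, and the largest rises were in SMAD6 (4.55, SE 0.36), an inhibitor induced by BMP signalling, and SMAD9 (4.48, SE 0.34), a signal carrier. HAND1, TBX3, SMAD6 and SMAD9 each had ranges apart between day 0 and day 9.

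In the same comparison ENG (3.33) and ACVRL1 (1.74), which together bind the ligands GDF2 and BMP10, rose most among the receptors, 3 of 11 of which rose, and the co-receptors RGMA (-3.78) and HJV fell. HJV had 35 counts in all at day 0 and 10 at day 9, a ratio of 5.34 (2.59 to 12.1). Of the other ligands, GDF2, a close relative of BMP10, was called higher from 0 counts in every day 0 well to 88 counts in all at day 9. GDF7 (4.82) rose too, 3 of 7 rose in all, and BMP3 fell from 64 counts in all to 7. Of the other binders 7 of 13 rose, most of all SOST (7.89), which encodes sclerostin, and BMPER (5.68), and CHRDL1 (-3.59) fell. Of the proteases PCSK6 (2.80) and FURIN (2.08), which cut BMP precursors, rose among 3 of 6 that did, and TLL2 (-3.21), of the family that cuts chordin, fell.

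From day 9 to day 90, 33 of the 57 were called, 9 higher and 24 lower. Of all genes 23.9% were called, 11.9% higher and 12% lower. The target genes went the other way, with 11 of 12 lower and none higher, where 12% of all genes were called lower. Their median was -2.15, against -0.02 over all genes. MSX1 (-3.13, SE 0.52) and ID1 (-2.73, SE 0.34) fell most. The 8 SMADs and inhibitors had 2 called, both lower, the inhibitors SMAD6 (-1.61) and SMAD7 (-1.12). BMPR1B (2.30) and BMPR2 (1.18), a type I and a type II receptor, rose, and ENG (-1.72) and ACVR2B (-1.03) fell. The remaining lists moved both ways. SOST (-8.19) and FST (-2.70) fell and SOSTDC1 (3.30) and DAND5 rose among the binders, DAND5 from 7 counts in all to 50. BMP3 rose from 7 counts in all to 386, with overlapping wells, and GDF5 (1.65) rose too, while BMP8A and BMP8B (-1.75) fell. BMP8A went from 55 counts in all to 4, and reads of BMP8A and BMP8B, near-identical copies, may have been split between them. TLL2 (2.91) and TLL1 (2.62) rose and PCSK6 (-1.82) and PCSK5 (-1.45) fell among the proteases.

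**Figure D5:**
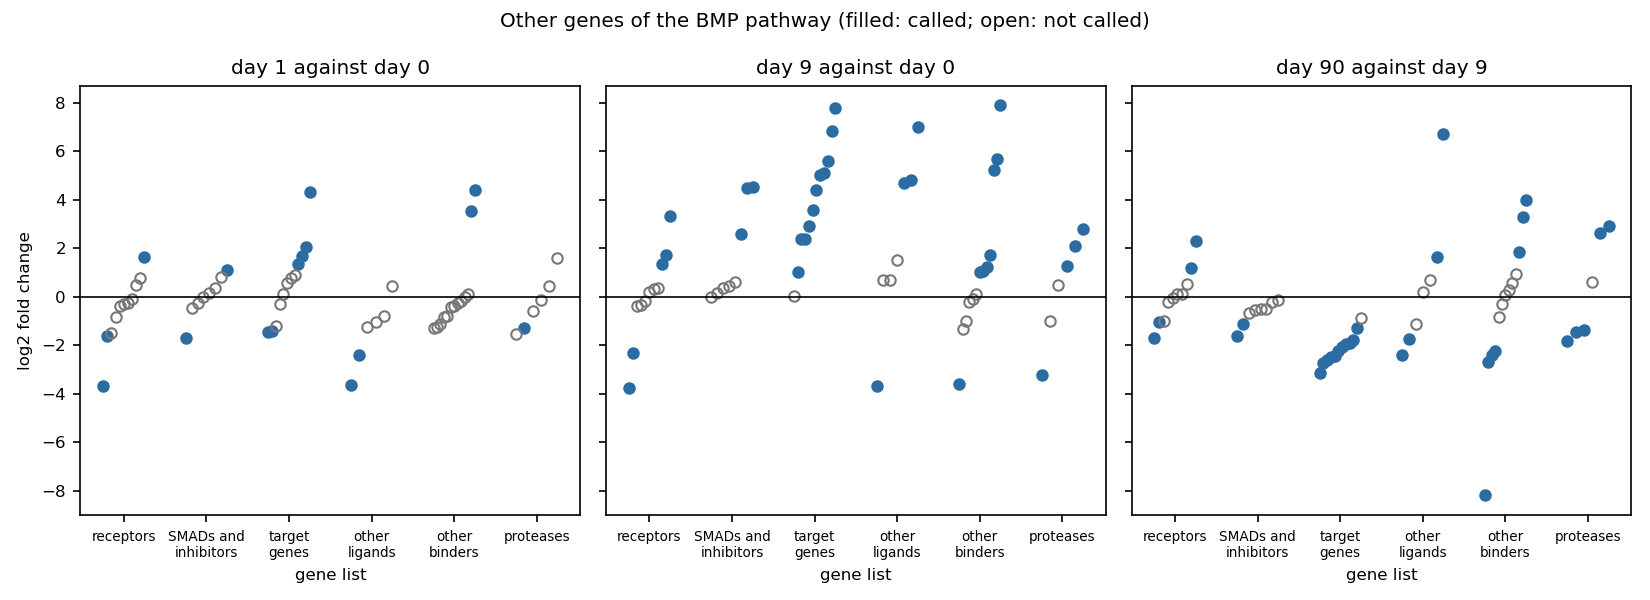
Fitted log2 fold change (edgeR) of the other BMP pathway genes by list, in 3 comparisons; each point is a gene, filled where called and open where not, and 2 points with at most 3 counts in every well of both groups are left out. Of the 12 target genes, 11 are filled and above 0 at day 9 against day 0, and 11 are filled and below 0 at day 90 against day 9.

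For each of the 9 genes, the 3 protein-coding genes with the most similar course were found by Pearson correlation of the 12 group means of log2(CPM + 1). These are descriptions over 12 points that share libraries. BMP5 had the closest matches, RBM20 (0.99), a splicing factor of heart muscle, MEIS2 (0.99), a transcription factor, and SH3RF2 (0.99). CHRD ran closest to PCDH17 (0.99), FZD4 (0.98), which encodes a Wnt receptor, and BIN1 (0.97), and NOG to PHF24 (0.98), NKX2-6 (0.97), a cardiac homeobox gene, and MECOM (0.97). BMP10 ran with ZC3H7A (0.98), ADAMTS18 (0.97) and PSTPIP2 (0.97). BMP4 ran with FAM89A (0.98), CPD (0.97) and ISL1 (0.96), a transcription factor of the second heart field, and BMP7 with RRAD (0.97), HSPB2-C11orf52 (0.96), a read-through gene, and LMTK2 (0.96). Matches were weaker for BMP2, with CMTM3 (0.96), BMP2K (0.94), a kinase gene named for its induction by BMP2, and CBFB (0.94), and for BMP6, with MKLN1 (0.92), SLC28A2 (0.92) and SPOCK3 (0.91). They were weakest for GREM1, with LRCH3 (0.86), ZNF653 (0.84) and SPAG9 (0.82). Between the 9 genes themselves, the highest correlations were those of BMP10 with BMP2 (0.90) and NOG (0.89) and of BMP4 with BMP6 (0.87). GREM1 had the lowest top value, 0.35 with BMP5.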

How the data were processed

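Total RNA of 44 culture wells was made into stranded total-RNA libraries and sequenced as 150 bp read pairs, 10 libraries per lane, per the labels' protocols. The submitters' processing notes name cutadapt, STAR 2.5.2b, RSEM 1.2.31 and genome build hg38, without their order or settings. The authors deposited estimated counts per gene, unscaled, of which 93.8% were whole numbers, and TPM, scaled for transcript length. Another table deposited by the authors gives a score for each library, the RNA integrity number, and its lane. All columns matched a labelled sample. Symbols and coordinates come from GENCODE release 29 (GRCh38), which held 56769 of the 60499 identifiers.

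Estimated counts were rounded, filtered (filterByExpr) and fitted over all 44 libraries with 1 mean per group, TMM scaling and the quasi-likelihood test of edgeR 4.0.16 in R 4.3.3. Adjusted p-values run over all 22955 genes tested. The standard error is the log2 fold change divided by the square root of the F statistic. The step was tested on simulated data. For day 9 against day 0, 98.5% of 200 changed genes of 19358 were recovered, and for day 1 against day 0, 94.5% of 200 of 19347. The planted changes were all larger than the fold limit, in genes above a minimum level, with the spread of the fitted trend. Recovery of changes at the limit, or in genes with few counts or a wider spread, was not tested. Alternatives were DESeq2 1.42.0, RLE scaling, other filters, limma 3.58.1 on log2(TPM + 1) and log2(TPM + 0.1), a fit of the compared groups alone, a term for sequencing lane, a replicate block, and each well left out. Replicate numbers paired all wells in day 9 against day 7, where every pair's deviations correlated by over 0.1 (0.11 to 0.67). Day 14 against day 11, day 20 against day 14 and day 90 against day 9 met that limit too, with only some wells paired. A floor of 3 counts per library was used. The genes and lists were chosen with earlier results of these data known. Named pathway genes were, in each list and comparison, the 2 with the largest called rise and the 2 with the largest called fall. Similar genes had at least 5 CPM in 1 group mean. Sequences come from RefSeq.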

Additional observations from a re-analysis of the deposited data

Results flagged for a closer look

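Of 36 sets of 5 wells (the 9 genes at day 5, 7, 9 and 11), 2 had 1 well far from the other 4 by Dixon's test at its 95% level, which chance flags in about 1 of 20 sets. Both were well 10 of day 7. NOG was at 22.9 CPM there, against 8.71 to 12.8 CPM in the other wells, and GREM1 was at 11.0 CPM, against 1.18 to 1.87 CPM. That well also held 48.6 CPM of the 3 pluripotency markers against 4.15 to 6.96 CPM in the other day 7 wells, and 378 CPM of the 6 fibroblast and epicardium markers against 688 to 900 CPM. Their part in these levels was not tested.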

How the results depend on the processing

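Of 34 calls of a gene in a comparison, 20 held in every alternative run, and of 588 values under an alternative, 504 kept the call, 84 lost it and 0 changed direction. With RLE scaling, DESeq2 and no filter on low counts all 34 calls held. On the TPM scale the median of all genes itself moved, to -0.30 from day 0 to 9 and to -0.48 from day 9 to 90, with log2(TPM + 1). With each of the 3 limma fits (log2(TPM + 1), log2(TPM + 0.1), and log2(TPM + 1) on all genes above 0) the calls were 0 in the step to day 0, 1 in that to day 1, 1 in that to day 7, 0 in that to day 9 and 0 in that to day 30. The first 2 of these fits tested 8 of the 9 genes, since BMP6 did not pass their filter, so that only the fit on all genes above 0 tested its fall to day 9 (log2 -0.67, adjusted p = 0.94). In the step to day 90 they were 1 with log2(TPM + 1) and 0 with all genes above 0. Pathway genes called in the same 3 fits were 7, 7 and 6 at day 1, and 21, 20 and 21 at day 9 relative to day 0. At day 90 relative to day 9 they were 21 with log2(TPM + 1) and 20 with all genes above 0. With only the compared groups fitted, day 30 against day 20 and day 90 against day 30 had 0 calls each, where that fit called 0 of 18096 and 2 of 17049 genes in all, and with sequencing lane as a term the latter had 1. Without day 11 wells 1 and 2, a choice made after the data were seen, day 14 against day 11 had 3, where 10.4% of all genes were called. The cause of these changes was not tested.

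With the replicate block, day 11 against day 9 had 2 calls, CHRD and BMP2, and day 90 against day 30 had 1. Elsewhere the block left each count of calls within 1.5 times the main one, and in day 9 against day 7, where the numbers paired the wells, it left 1. In the other comparisons at most some wells shared a number, or not every pair's deviations correlated by over 0.1. Same-numbered wells could also share a lane. Wells 2 and 3 of day 14 and day 20, whose deviations correlated by 0.53 and 0.52, were in lanes 2 and 3 on both days.

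With 1 well left out at a time, calls among the 9 genes were 1 to 2 in the step to day 0, 1 to 3 to day 1, 5 to 6 to day 3, 1 to 3 to day 5, 2 to day 7, 0 to 1 to day 9, 0 in the next 3 steps, 0 to 3 to day 30 and 0 to 1 to day 90. The wells behind the lower counts are named beside each gene. They were 7 to 8 in each of the 2 longer comparisons. Pathway genes called were 12 to 14, 32 to 35 and 29 to 33 in their 3 comparisons. Depth limits BMP10 up to day 1, where at most 3 counts per well were seen.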
